A study of Mus musculus with 4 samples.

Results

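The genes described here are 40 genes of the cell division cycle, 13 with roles in S phase and 27 with roles in G2 phase and mitosis (G2/M), taken by symbol from a list out of the 31055 genes counted in every library. All 40 had at least 1 UMI (unique molecular identifier, 1 counted RNA molecule) in the cells kept, against 65.8% of all genes, and 17 of the 40 lay above the median of 190 UMIs of a gene with any UMI.

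The data are single-cell RNA counts (10x Genomics 3' chemistry) of dissociated hippocampus from male mice on a C57BL/6J background, aged 3 months, with 1 library per mouse and 2 libraries per genotype. Dp(10)2Yey mice carry 1 extra copy of a segment of chromosome 10 on 1 homolog and are studied as a model of part of Down syndrome, and their wild-type (WT) littermates lack the duplication. WT replicates 1 and 2 held 1039 and 1708 barcodes with 3002546 and 6848466 UMIs, and Dp(10)2Yey replicates 1 and 2 held 1372 and 2345 barcodes with 5112759 and 9612011 UMIs. After removal of 183 barcodes under 200 genes and 39 rich in globin RNA, 6242 cells remained, with a median of 2093 and 3688.5 UMIs per cell in the WT and 3386.5 and 3671 in the Dp(10)2Yey libraries, and 8 barcode sequences were found in more than 1 library.

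In S phase a cell copies its DNA: the Mcm2 to Mcm7 helicase opens the strands, Pcna clamps the polymerase to them, and Rrm1, Rrm2, Tyms and Tk1 supply nucleotides. In G2 and mitosis Cdk1 with its cyclins drives entry, condensins and topoisomerase fold and untangle the chromosomes, kinesins and kinases build the spindle, and Ube2c and Cdc20 act in the degradation that ends mitosis. In the adult hippocampus, progenitors of the dentate gyrus divide and give rise to immature granule neurons, oligodendrocyte precursors keep dividing, microglia renew slowly, and mature neurons and myelinating oligodendrocytes do not divide.

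The genotype labels and the tissue were checked first. None of the 40 genes lies in the duplicated segment, chr10:76207222-78464975 of GRCm38, and 1 of them, Cdk1, lies elsewhere on chromosome 10. Of 31 genes of that segment tested over all cells, 29 were above 0 in Dp(10)2Yey against WT, with a median log2 fold change of 0.57 against -0.004 over all genes, of which 49.1% were above 0. By edgeR 0 of the 31 passed an adjusted p of 0.01 (lowest 0.863), with 23 at an unadjusted p under 0.05 beside 2.71% of all genes, and DESeq2 called 0. Cells were grouped by expression with 134 cell cycle genes, the 40 included, left out of the variable genes, and groups were named by their leading marker genes: 434 cells were neuron-like, 181 immature neuron-like, 470 oligodendrocyte precursor-like and 890 astrocyte-like, while 2007 were microglia-like, 970 oligodendrocyte-like, 292 endothelial-like and 127 ependymal-like, and 871 stayed unnamed. Neuron-like cells were thus 6.95% of cells, and the immature neuron-like cells (27 and 48 in the WT, 33 and 73 in the Dp(10)2Yey libraries) were led by Igfbpl1, Neurod1 and Sox11 together with Top2a, Ube2c and Pclaf.

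The G2/M genes were more concentrated in 1 cluster than the S genes. Of the 27 G2/M genes, 23 had at least 50% of their UMIs in the immature neuron-like cells, which made up 2.90% of cells and 3.65% of UMIs, against 3 of the 13 S genes (Pclaf, Rrm2 and Tk1). The median share of a gene's UMIs in these cells was 71.4% for G2/M and 25.2% for S genes. These counts depended on how cells were assigned. In an alternative chosen after seeing the data, with each barcode given the class of most of its marker UMIs, 3 of 27 G2/M and 2 of 13 S genes had at least 50% of their UMIs in immature neuron-like cells, with medians of 40.8% and 23.8%. The G2/M median was 22.9% in oligodendrocyte precursor-like and 18.9% in microglia-like cells, which by markers held 7.62% and 40.5% of all UMIs, against 3.47% in immature neuron-like cells. The shares per gene given next are by cluster unless said otherwise. The 4 G2/M exceptions by cluster were Hmgb2, Smc2, Smc4 and Kif11, and 1 gene weighed on each list: Hmgb2 held 59.7% of all G2/M UMIs and Pcna 31.8% of all S UMIs.

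**Figure D1:**
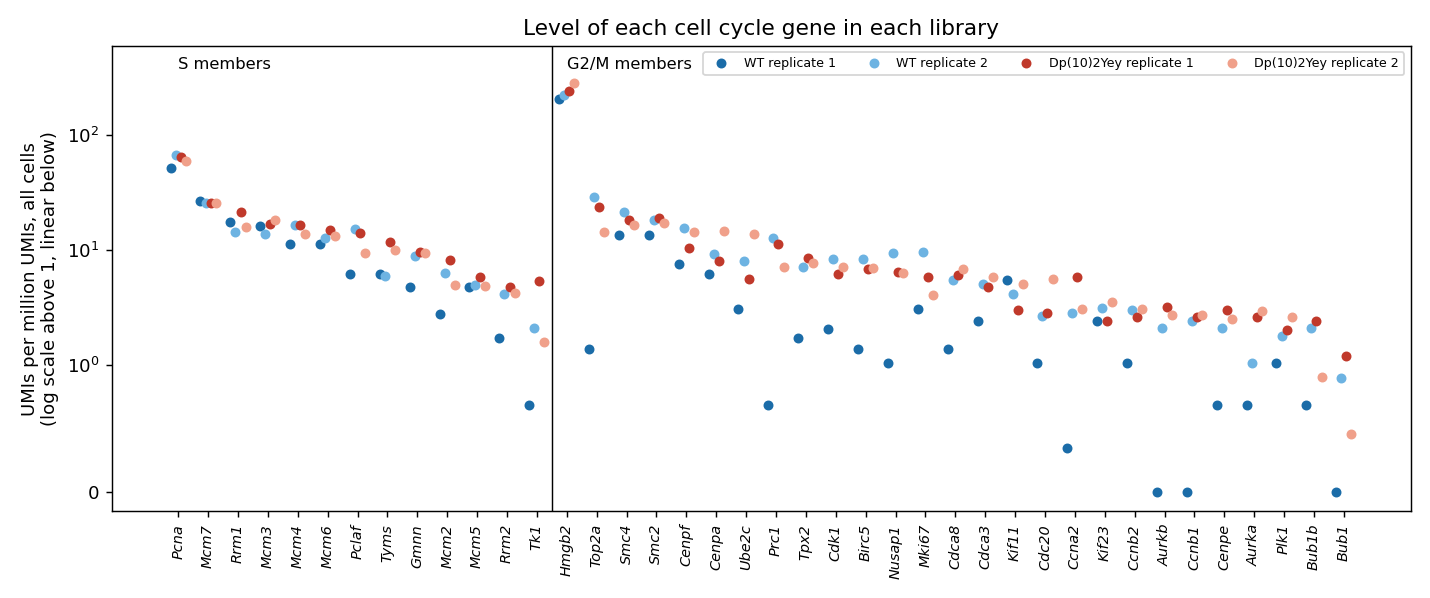
UMIs per 1000000 UMIs (log scale above 1, linear below) of each of the 40 genes over all cells, 1 point per library, S genes left of the line and G2/M genes right of it, each ordered by total UMIs. Hmgb2 stands highest at 206 to 286, and WT replicate 1 lies low for most G2/M genes, at 1.37 for Top2a against 14.3 to 28.7 in the other libraries.

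Levels below are UMIs per 1000000 UMIs of the cells summed (CPM), and since the assay counts transcript 3' ends they are not scaled by gene length and are compared within a gene. The helicase subunit Mcm7 (ENSMUSG00000029730) had 26.7 and 25.4 CPM over all cells of the WT libraries and 25.8 and 25.5 in the Dp(10)2Yey libraries. Its 4 values differed little. The sliding clamp Pcna (ENSMUSG00000027342) varied more, with overlapping groups, at 51.8 and 67.4 CPM in WT and 64.5 and 60.1 in Dp(10)2Yey. Pcna UMIs were found in classes that do and do not divide, with 1 or more in 32.4% of oligodendrocyte-like cells, 20.4% of microglia-like cells and 25.4% of immature neuron-like cells, at median depths of 4969, 4100 and 3837 UMIs. The counts used held only barcodes called as cells, so how much of this was RNA carried over from other cells was not measured.

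The ribonucleotide reductase subunit Rrm1 had 17.5 and 14.4 CPM in the WT and 21.6 and 15.95 in the Dp(10)2Yey libraries, with overlapping groups. The helicase subunit Mcm3 had 16.1 and 13.7 CPM in WT and 16.97 and 18.2 in Dp(10)2Yey, and its groups did not overlap. Mcm4, another subunit of the same ring, had 11.3 and 16.5 CPM in WT and 16.4 and 13.7 in Dp(10)2Yey. The subunits of the helicase did not share 1 distribution over cells. Mcm3 had 59.0% of its UMIs in microglia-like cells, which held 36.4% of all UMIs, with a UMI in 9.72% of them against 2.78% of oligodendrocyte-like cells, whereas Mcm7 had 16.7% of its UMIs there and 21.2% in oligodendrocyte precursor-like cells, which held 8.77% of all UMIs. Tyms, thymidylate synthase, named after the values were seen, had 41.3% and Pcna 35.6% of their UMIs in microglia-like cells, near the share of all UMIs there.

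Top2a (ENSMUSG00000020914), the topoisomerase that untangles replicated chromosomes, had 4 and 193 UMIs in the WT and 118 and 126 in the Dp(10)2Yey libraries, or 1.37 and 28.7 CPM against 23.6 and 14.3 CPM. WT replicate 1 was far below the other 3 libraries, and the genotypes overlapped. Of its 441 UMIs, 84.4% lay in immature neuron-like cells, where 29 of 181 cells held it, and cells with the RNA carried a mean of 8.48 UMIs each. By marker class 47.6% lay in immature neuron-like, 35.1% in oligodendrocyte precursor-like and 14.3% in microglia-like cells. It was found in 4 of 2007 microglia-like cells (0.199%) and 3 of 970 oligodendrocyte-like cells (0.309%), a share no higher than in the class that should lack it, and in 0 of 434 neuron-like cells, which had a median depth of only 1769.5 UMIs.

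Mki67, which encodes the proliferation marker Ki-67 on mitotic chromosomes, had 9 and 65 UMIs in the WT and 29 and 36 in the Dp(10)2Yey libraries, or 3.09 and 9.67 CPM against 5.79 and 4.07. The Dp(10)2Yey values lay between those of WT, and 72.7% of the UMIs were in immature neuron-like cells by cluster. By marker class 33.1% were there and 38.8% in oligodendrocyte precursor-like cells. Ube2c, the ubiquitin-conjugating enzyme of the anaphase-promoting complex, had 3.09 and 8.03 CPM in WT and 5.59 and 13.8 in Dp(10)2Yey. It had 94.4% of its UMIs in immature neuron-like cells (48.8% by marker class), and none in 970 oligodendrocyte-like cells.

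The centromeric histone Cenpa had 6.17 and 9.22 CPM in WT and 7.99 and 14.6 in Dp(10)2Yey, and 63.5% of its UMIs were in immature neuron-like cells (40.2% by marker class). The kinetochore protein gene Cenpf had 7.54 and 15.5 CPM in WT and 10.4 and 14.4 in Dp(10)2Yey, overlapping like Cenpa. Outside the immature neuron-like cells, which held 61.0% of its UMIs (38.0% by marker class), Cenpf had a UMI in 19 of 51 cells (37.3%) of an unnamed group led by Reln and in 25 of 434 neuron-like cells (5.76%), against 8 of 970 oligodendrocyte-like cells (0.825%). The median depths of the Reln-led, neuron-like and oligodendrocyte-like cells were 3961, 1769.5 and 4969 UMIs, and no other of the 7 most abundant G2/M genes was found in as large a share of the Reln-led cells.

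The 2 condensin genes lay outside the pattern. Smc2 had 13.4 and 18.3 CPM in WT and 19.0 and 17.1 in Dp(10)2Yey, and Smc4 had 13.4 and 21.6 in WT and 18.2 and 16.4 in Dp(10)2Yey. The lowest value of both was WT replicate 1. They were found in 8.04% and 9.90% of oligodendrocyte-like cells, and 29.2% and 23.8% of their UMIs were in immature neuron-like cells. The mitotic kinesin gene Kif11, named after its values were seen, had 41 of its 104 UMIs in ependymal-like cells, in 26 of 127 of them (20.5%, at a median depth of 2368 UMIs), against 2 of 970 oligodendrocyte-like cells (0.206%).

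Hmgb2 (ENSMUSG00000054717), a DNA-bending protein gene abundant in dividing cells but also found outside the cycle, had 206 and 226 CPM in WT and 243 and 286 in Dp(10)2Yey. Both Dp(10)2Yey libraries were above both WT libraries. Microglia-like cells held 48.7% and immature neuron-like cells 30.7% of its UMIs. It was found in 57.4% of microglia-like and 56.9% of immature neuron-like cells, but in 9.28% of oligodendrocyte-like and 3.69% of neuron-like cells, so that the G2/M total of microglia-like cells was mainly a level of Hmgb2.

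The members with fewest UMIs were mitotic kinase genes. The checkpoint kinase gene Bub1 had 0 and 6 UMIs in WT and 6 and 4 in Dp(10)2Yey, Bub1b had 2 and 14 against 12 and 8, Plk1 had 3 and 12 against 10 and 23, and Aurka had 2 and 7 against 13 and 26. Each was lowest in WT replicate 1, the shallowest library, where 0 UMIs of Bub1 allow up to 3 counts. The shares of their UMIs in immature neuron-like cells ran from 52.1% for Aurka to 81.2% for Plk1, and by marker class these were 31.2% and 47.9%.

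**Figure D2:**
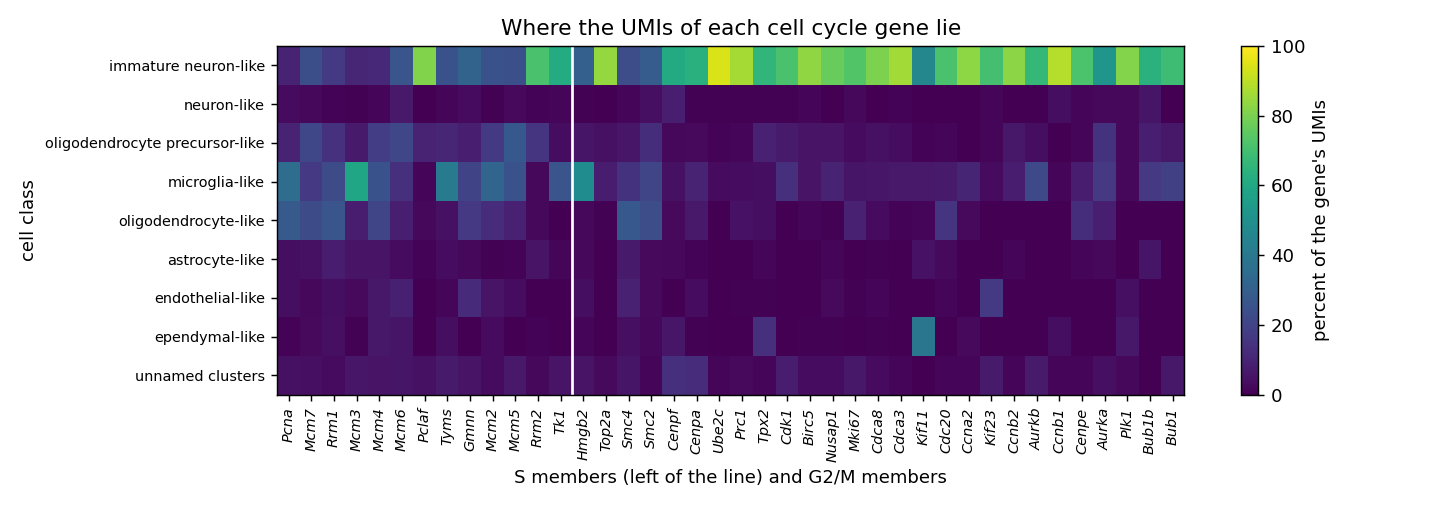
Percent of each gene's UMIs (colour) that lie in each cell class (vertical axis), S genes left of the line and G2/M genes right of it. Classes are by cluster. The immature neuron-like class holds at least 50% for 23 of 27 G2/M and 3 of 13 S genes, and microglia-like cells hold 59.0% for Mcm3 and 48.7% for Hmgb2.

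The promoters of the 2 groups also differed in letters that the choice of genes did not use. Promoter windows from RefSeq (build GRCm38.p6), from 250 bases before to 50 after a start, were held for 34 of the 40 genes (11 S and 23 G2/M), and 3 motifs were searched on both strands. They were CHR (TTTGAA or TTCGAA), the element of the DREAM complex at late cycle genes, CCAAT, the letters of NF-Y, and E2F (TTTCCCGC, TTTGGCGC, TTTCGCGC or TTTGCCGC), the element of early cycle genes. CHR was in 83.3% of the windows of G2/M genes, 16.7% of those of S genes and 19.2% of all 32851 windows. CCAAT was in 91.7%, 83.3% and 37.4%, and CHR together with CCAAT in 83.3%, 16.7% and 7.52%. E2F letters were in 4.17% of windows of G2/M genes, with Cdk1 the 1 gene, in 41.7% of those of S genes (Pclaf, Mcm3, Mcm5, Mcm6 and Mcm7), and in 2.26% of all. A match is a description, not a site or a cause.

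To show these letters, the 120 bases before the start are given for 3 G2/M genes, Top2a at chr11:99024190-99024309 (minus strand), Kif11 at chr19:37376262-37376381 (plus strand) and Hmgb2 at chr8:57511723-57511842 (plus strand), and for 2 helicase genes, Mcm6 at chr1:128359706-128359825 (minus strand) and Mcm3 at chr1:20820313-20820432 (minus strand). Each is read 5' to 3' along its gene, and capitals mark the motif letters on either strand. The E2F letters of Mcm3 lie in its window but outside the stretch shown.
Top2a: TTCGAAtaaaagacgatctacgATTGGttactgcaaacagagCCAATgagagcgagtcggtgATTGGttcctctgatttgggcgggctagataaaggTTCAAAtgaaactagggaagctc
Kif11: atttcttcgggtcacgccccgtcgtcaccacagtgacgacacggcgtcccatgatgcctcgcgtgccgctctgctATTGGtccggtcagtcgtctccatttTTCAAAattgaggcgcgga
Hmgb2: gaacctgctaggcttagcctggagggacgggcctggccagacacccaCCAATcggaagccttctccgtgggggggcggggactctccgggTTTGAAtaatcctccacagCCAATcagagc
Mcm6: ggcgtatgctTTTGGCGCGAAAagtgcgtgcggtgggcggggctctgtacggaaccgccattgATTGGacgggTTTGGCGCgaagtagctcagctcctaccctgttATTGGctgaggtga
Mcm3: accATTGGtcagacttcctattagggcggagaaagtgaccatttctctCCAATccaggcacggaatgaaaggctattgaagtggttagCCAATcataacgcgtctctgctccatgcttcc
Hmgb2 and Kif11, which lay outside the main pattern of cells, carried CHR letters within 30 bases of the start as Top2a did, at 30, 19 and 23 bases. This place was not shared by all G2/M genes with CHR letters. In several, among them Ccnb2, Cenpa, Aurka and Plk1, the letters lay in the window but outside the 120 bases before the start.

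Summed over genes, both phases were highest in the immature neuron-like cells. The S genes together reached 426 and 1423 CPM in the WT and 1691 and 1038 in the Dp(10)2Yey libraries there, and the G2/M genes 1902 and 6726 in WT and 5246 and 4903 in Dp(10)2Yey. WT replicate 1 was lowest for both. Neuron-like cells of the same libraries had S levels of 118 and 86.7 CPM in WT and 49.1 and 83.96 in Dp(10)2Yey, and G2/M levels of 129 and 57.8 against 58.9 and 81.3. Within each library the immature neuron-like cells were above the neuron-like ones, by a median log2 ratio of 3.83 for S and 6.20 for G2/M.

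Oligodendrocyte precursor-like cells had the next highest S level of the 4 other classes compared. It was 322 and 326 CPM in WT and 253 and 313 in Dp(10)2Yey, above microglia-like cells (135.0 and 135.3 in WT, 174 and 155 in Dp(10)2Yey) in all 4 libraries by a median log2 ratio of 1.14. For G2/M the order of these 2 classes depended on Hmgb2 and on how classes were assigned. With it, by cluster, microglia-like cells were above the precursors in all 4 libraries, at 322 and 336 CPM in WT and 415 and 405 in Dp(10)2Yey against 229 and 247 in WT and 253 and 259 in Dp(10)2Yey, a median log2 ratio of precursor over microglia of -0.57. Without it, the precursors had 92.5 and 98.96 CPM in WT and 97.1 and 88.8 in Dp(10)2Yey and the microglia 24.1 and 27.9 in WT and 64.4 and 49.4 in Dp(10)2Yey, and the ratio was 1.34. With Hmgb2 but with classes by marker UMIs it was 0.50. There WT replicate 1 went the other way, at 210 CPM in precursors against 309 in microglia-like cells.

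As a reference for RNA outside dividing cells, oligodendrocyte-like cells had S levels of 167 and 168 CPM in WT and 169.6 and 160.0 in Dp(10)2Yey. This was no lower than in microglia-like cells in 3 of 4 libraries. The 26 G2/M genes without Hmgb2 stood at 58.8 CPM in oligodendrocyte-like and 43.3 in microglia-like cells over all libraries. That order depended on the library and on how classes were assigned. The log2 ratio of microglia-like over oligodendrocyte-like was -1.41 and -1.26 in WT and 0.17 and -0.03 in Dp(10)2Yey. By marker class the levels were 60.5 CPM in oligodendrocyte-like and 81.1 in microglia-like cells. Of 20 ratios between 5 classes (10 for S and 10 for G2/M), 18 had the same direction in all 4 libraries, each with an exact paired permutation p of 0.125 (two-sided, Benjamini-Hochberg adjusted 0.139), the smallest that 4 pairs allow. The exceptions were microglia-like over oligodendrocyte-like for S (exact permutation p 0.25) and neuron-like over oligodendrocyte-like for G2/M (exact permutation p 1). No ratio could pass 0.05 in this design.

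**Figure D3:**
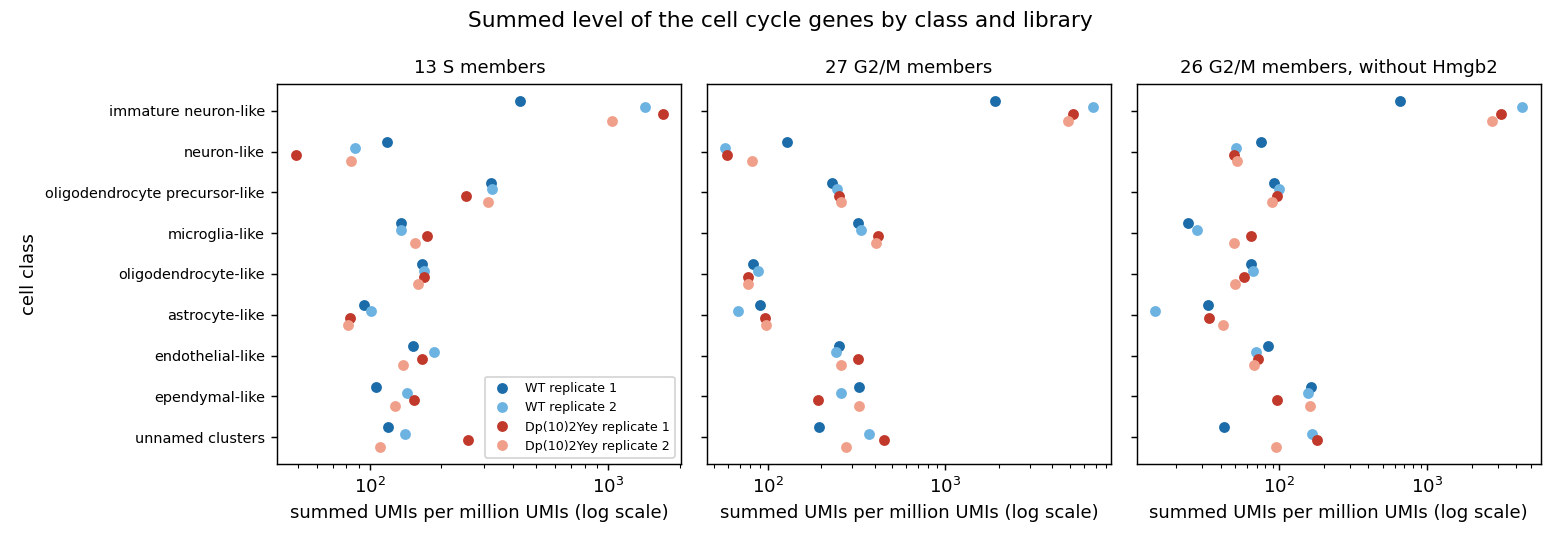
Summed UMIs per 1000000 UMIs (log scale) of the 13 S genes, the 27 G2/M genes and the 26 G2/M genes without Hmgb2, by cell class, 1 point per library. Immature neuron-like cells lie above the other classes in all 4 libraries for G2/M, from 1902 to 6726, and microglia-like cells drop below the oligodendrocyte precursor-like cells once Hmgb2 is left out, at 24.1 to 64.4 against 88.8 to 98.96.

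The S share, the percent of the UMIs of all 40 genes that came from S genes, ranked the classes differently. It was 19.0% (95% exact Clopper-Pearson interval 18.0 to 20.1%) in immature neuron-like cells, 28.5% (27.2 to 29.9%) in microglia-like, 53.3% (46.1 to 60.4%) in neuron-like, 54.7% (51.7 to 57.6%) in oligodendrocyte precursor-like and 67.0% (64.3 to 69.5%) in oligodendrocyte-like cells. Without Hmgb2 the shares were 28.5%, 77.7%, 60.3%, 76.2% and 73.8%, so the low share of microglia-like cells rested on Hmgb2 and that of the immature neuron-like cells did not. With classes by marker UMIs the share of oligodendrocyte precursor-like cells fell to 32.5%, and those of immature neuron-like and microglia-like cells were 23.8% and 26.4%. Per library the immature neuron-like share was 18.3% and 17.5% in WT and 24.4% and 17.5% in Dp(10)2Yey, with Dp(10)2Yey replicate 1 highest. The shares of oligodendrocyte precursor-like cells were 58.4% and 56.9% in WT and 50% and 54.7% in Dp(10)2Yey, and those of microglia-like cells 29.5% and 28.7% against 29.6% and 27.6%. Intervals cover counting error only.

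RNA of most G2/M genes was held by few barcodes. With at least 5 of the 27 G2/M genes found in 1 barcode, there were 51 such barcodes (0.817% of cells), 5 and 15 in the WT and 10 and 21 in the Dp(10)2Yey libraries. They held 1.98% of all UMIs, 21.9% of S UMIs and 10.2% of Pcna UMIs. Since they were chosen by G2/M genes, a high share of those genes is partly built in, so in an alternative added after seeing the data each G2/M gene was measured in the 45 to 51 barcodes with at least 5 of the other G2/M genes. The median share of a gene's UMIs there was 80.6% over the 27 G2/M genes, from 22.4% for Smc4 to 97.2% for Ube2c, with 93.7% for Top2a, 93.8% for Bub1 and 28.3% for Hmgb2, and 23.0% over the 13 S genes. These barcodes were still chosen by G2/M genes and no set was chosen by S genes. The 2 medians are thus not on equal terms, and a lower S median is partly built in. The 51 barcodes made up 0.494% (0.161 to 1.15%) and 0.892% (0.500 to 1.47%) of cells in WT and 0.741% (0.356 to 1.36%) and 0.955% (0.592 to 1.46%) in Dp(10)2Yey, by Clopper-Pearson intervals that overlap for all 4 libraries. None of the 51 was called a doublet, and their median depth was 7650 UMIs against 3422 in other cells.

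S and G2/M genes met in the same barcodes. Of the 51, 37 also held at least 3 S genes. The highest counts in 1 barcode were all 27 G2/M genes and all 13 S genes, but these were in different barcodes. At least 5 S genes were found in 62 cells, of which 25 also held at least 5 G2/M genes. The other 37 were 18 oligodendrocyte precursor-like, 8 immature neuron-like, 8 microglia-like, 2 oligodendrocyte-like and 1 endothelial-like. By rate these were 8 of 181 immature neuron-like cells (4.42%, 1.93 to 8.52%), 18 of 470 precursors (3.83%, 2.29 to 5.99%), 8 of 2007 microglia-like cells (0.399%, 0.172 to 0.784%) and 2 of 970 cells of the deeper oligodendrocyte-like class (0.206%, 0.0250 to 0.743%).

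Depth differed between classes, so each barcode was also thinned to 1000 UMIs. At that depth 27 of 156 immature neuron-like cells (17.3%, 11.7 to 24.2%) held at least 3 G2/M genes, against 3 of 393 oligodendrocyte precursor-like (0.763%, 0.158 to 2.21%), 1 of 1929 microglia-like (0.0518%, 0.00131 to 0.288%), 0 of 384 neuron-like and 0 of 923 oligodendrocyte-like cells. At least 3 S genes were held by 10 of 156 immature neuron-like cells (6.41%, 3.12 to 11.5%), 4 of 393 precursors, 1 of 1929 microglia-like, 1 of 384 neuron-like and 2 of 923 oligodendrocyte-like cells. At 1000 UMIs only the immature neuron-like interval lay wholly above that of the oligodendrocyte-like reference in either phase. The intervals pool the cells of all 4 libraries and cover counting error only, so they test no difference between classes across mice. In the alternative thinned to 2000 UMIs, at least 3 S genes were found in a larger share of precursors than of microglia-like cells. Precursors and the oligodendrocyte-like reference are not compared here at 2000 UMIs. Unthinned, the pooled precursor interval also lay above that of the oligodendrocyte-like cells in both phases. At least 3 S genes were in 55 of 470 precursors (11.7%, 8.94 to 14.96%) against 39 of 970 (4.02%, 2.87 to 5.46%). At least 3 G2/M genes were in 19 (4.04%, 2.45 to 6.24%) against 7 (0.722%, 0.291 to 1.48%). The median depth of the precursors was the lower, 4427.5 against 4969 UMIs. By library, at least 3 S genes were in 5.41% and 10.9% of precursors in WT and 14.4% and 13.4% in Dp(10)2Yey. The WT replicate 1 value lay within the pooled oligodendrocyte-like interval.

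**Figure D4:**
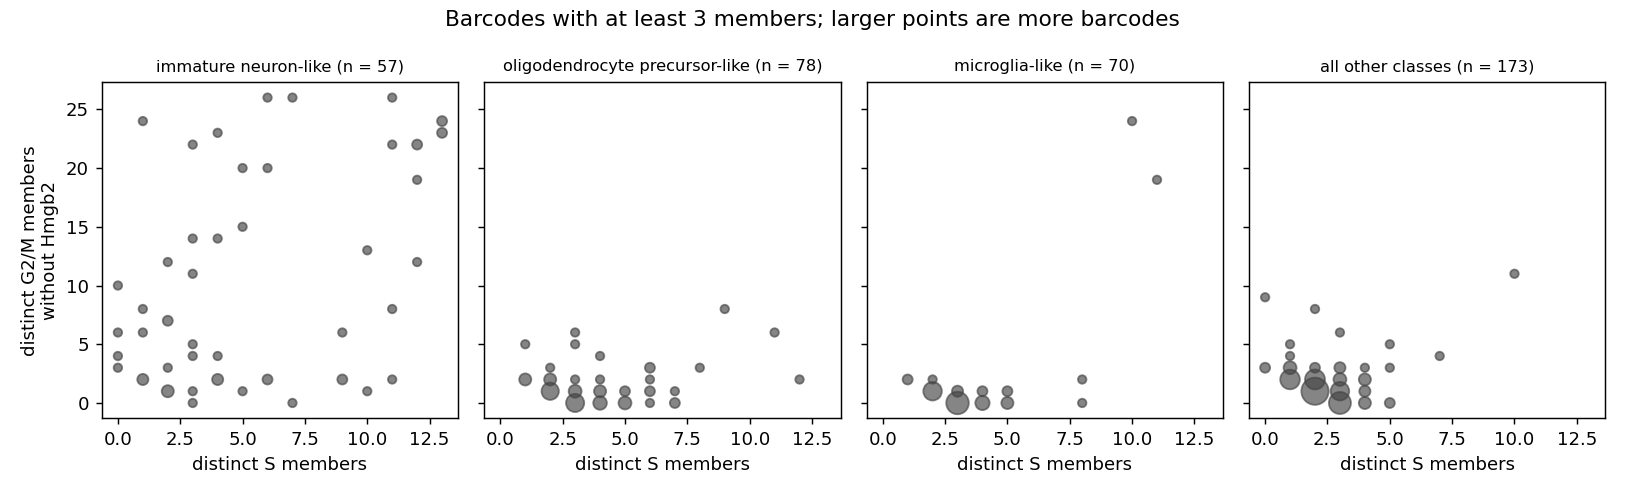
Distinct S genes (horizontal axis) against distinct G2/M genes without Hmgb2 (vertical axis) in each barcode with at least 3 of the 40 genes, in 4 panels by class, larger points standing for more barcodes. Barcodes with many G2/M genes are mainly in the immature neuron-like panel, and the oligodendrocyte precursor-like panel spreads along the S axis.

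The cell class of these barcodes depended on how it was assigned. By cluster, 35 of the 51 were immature neuron-like, 6 oligodendrocyte precursor-like, 2 microglia-like, 3 ependymal-like (median 37374 UMIs) and 5 unnamed. When each barcode took instead the class with the largest share of its marker UMIs, which reads none of the 40 genes, 26 were immature neuron-like, 12 oligodendrocyte precursor-like, 8 microglia-like, 3 ependymal-like, 1 lymphocyte-like and 1 oligodendrocyte-like. Of those 12 precursors by markers, 9 sat in the immature neuron-like cluster, and the 9 cells there that were precursors by markers had a G2/M level without Hmgb2 of 14916 CPM against 1924 in the 165 that were immature neurons by markers.

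By markers, G2/M levels of oligodendrocyte precursor-like cells without Hmgb2 were 103 and 896 CPM in WT and 297 and 569 in Dp(10)2Yey, against 92.5 and 98.96 in WT and 97.1 and 88.8 in Dp(10)2Yey by cluster. Barcodes with precursor markers and many G2/M genes were thus partly in the immature neuron-like cluster. Microglia markers in the immature neuron-like cluster (16 of 16 genes found, Ccl4 most abundant) stood at 87.5 and 46.8 CPM in WT and 59.1 and 1762 in Dp(10)2Yey, and the 3 cells there that were microglia by markers were all from Dp(10)2Yey replicate 2. Those 3 cells held 24.7% of the G2/M and 3.77% of the S UMIs of that library in the class, and without them, an alternative added after seeing the data, its levels were 3979 CPM for G2/M and 1076 for S.

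Genotype was compared next, to ask whether the duplication goes with a different level of cycle RNA. Over all cells, S genes together stood at 162 and 197 CPM in WT and 220 and 191 in Dp(10)2Yey, and G2/M genes at 278 and 422 in WT and 417 and 463 in Dp(10)2Yey. The groups overlapped for both (exact permutation p 0.667). With 2 libraries against 2 the smallest two-sided exact p is 0.333, so no summed level could pass 0.05.

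In neuronal cells, the neuron-like and immature neuron-like together, S levels were 271 and 459 CPM in WT and 634 and 570 in Dp(10)2Yey, with no overlap (exact permutation p 0.333). G2/M levels were 1009 and 1915 in WT and 1907 and 2538 in Dp(10)2Yey and overlapped (exact permutation p 0.667), WT replicate 2 and Dp(10)2Yey replicate 1 being nearly equal. Immature neuron-like cells were 27 of 76 and 48 of 191 neuronal cells in WT and 33 of 177 and 73 of 171 in Dp(10)2Yey, and within the immature neuron-like cells alone both levels overlapped (exact permutation p 0.667 for S and 1 for G2/M). Neuron-like cells alone went the other way for S, at 118 and 86.7 CPM in WT and 49.1 and 83.96 in Dp(10)2Yey, a difference of -36.0 with no overlap (exact permutation p 0.333). These levels rested on 11 and 48 S UMIs in WT and 15 and 31 in Dp(10)2Yey. WT replicate 2 and Dp(10)2Yey replicate 2 were nearly equal. Markers of some other cells differed too in neuron-like cells, while most marker lists overlapped between genotypes. Immature neuron markers were lower in Dp(10)2Yey, at 1302 and 1447 CPM in WT and 929 and 1254 in Dp(10)2Yey, with no overlap. Astrocyte markers stood at 2529 and 3633 CPM in WT and 6689 and 4837 in Dp(10)2Yey, with no overlap, and Dp(10)2Yey replicate 1, with the lowest S level, had the most oligodendrocyte marker RNA (8253 against 1909 to 4065) and the least neuron marker RNA (8658 against 13066 to 18152). Their part in the S level was not tested.

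In microglia-like cells the S levels, 135.0 and 135.3 CPM in WT against 174 and 155 in Dp(10)2Yey, did not overlap, and neither did the G2/M levels (exact permutation p 0.333). Hmgb2 made up most of the latter, and 1 barcode in each Dp(10)2Yey library carried at least 5 G2/M genes. Red blood cell markers in these cells (6 of 6 genes found, Hbb-bs most abundant) did not overlap between genotypes either, at 32.2 and 49.2 CPM in WT and 358 and 132 in Dp(10)2Yey, and the same held for markers of neurons (140.3 and 154 against 177 and 187), immature neurons (355 and 335 against 378 and 457), astrocytes (299 and 268 against 308 and 358) and ependymal cells (7.15 and 6.09 against 9.37 and 10.8). Markers of the other cell types searched overlapped, among them those of oligodendrocytes, oligodendrocyte precursors, endothelial cells and lymphocytes. Whether RNA of other cells bears on the S and G2/M levels was not tested. In comparisons chosen after seeing the data, without those 2 barcodes S was 154 and 146 and G2/M 358 and 372 in Dp(10)2Yey, both still above WT (G2/M 322 and 336). G2/M without Hmgb2 was 24.1 and 27.9 in WT and 64.4 and 49.4 in Dp(10)2Yey, again with no overlap. Only with both left out, Hmgb2 and the barcodes, did the values overlap, at 24.1 and 27.9 in WT and 32.4 and 24.6 in Dp(10)2Yey.

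In oligodendrocyte precursor-like cells the S level was lower in Dp(10)2Yey, 253 and 313 CPM against 322 and 326 in WT, with no overlap (exact permutation p 0.333). Without the barcodes of at least 5 G2/M genes (1 and 1 in WT, 1 and 3 in Dp(10)2Yey) it was 167 and 278 in WT and 253 and 298 in Dp(10)2Yey, and overlapped, and the difference of the means turned from -41.0 to 53.0 CPM. With classes by marker UMIs the S levels of precursors overlapped as well, at 179 and 497 in WT and 336 and 348 in Dp(10)2Yey. Markers of most cell types overlapped between genotypes in the precursors by cluster. Astrocyte markers did not overlap there, at 2265 and 1902 CPM in WT and 2377 and 2292 in Dp(10)2Yey. Their part in the S level was not tested. By cluster the G2/M level was 229 and 247 in WT and 253 and 259 in Dp(10)2Yey, which did not overlap (exact permutation p 0.333), but without Hmgb2 it did. In all remaining cells S was 137 and 156 in WT and 159 and 130.0 in Dp(10)2Yey, and G2/M 152 and 147 against 148 and 156, with overlap in both.

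Each gene was then tested with edgeR quasi-likelihood on counts summed per library, with Benjamini-Hochberg adjustment over all genes tested and a threshold of 0.01. Over all cells, 0 of 39 genes of the list tested (13 S and 26 G2/M, Bub1 being too low) passed, beside 0% of 13876 genes. DESeq2 also called 0 of them, and at an unadjusted p under 0.05 edgeR gave 1 S gene, Tyms, and 1 G2/M gene, Aurka, beside 2.71% of all genes tested. Tyms had 18 and 40 UMIs in WT and 59 and 89 in Dp(10)2Yey, a log2 fold change of 0.84 (SE 0.28, adjusted p 0.99996 by edgeR), and Aurka 2 and 7 against 13 and 26, a log2 fold change of 1.57 (SE 0.55, adjusted p 0.99996 by edgeR). Both were higher in both Dp(10)2Yey libraries. As 0 of the 31 duplicated genes were called either, 0 calls do not exclude differences of the size of an extra gene copy.

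Of the S genes 12 of 13 and of the G2/M genes 22 of 26 were above 0, with medians of 0.24 and 0.33 against -0.004 over all genes tested, of which 49.1% were above 0. WT replicate 1 weighed on this: without WT replicate 2, which leaves it as the lone WT library, the G2/M median was 1.69, and across the 4 fits that leave out 1 library it ran from 0.030 to 1.69, the lowest without WT replicate 1, where 13 of 26 G2/M genes were above 0. The S median ran from 0.0066 without Dp(10)2Yey replicate 1, where 7 of 13 S genes were above 0, to 0.40 without WT replicate 2, so each shift was near 0 in 1 of the fits. Of the abundant genes, Hmgb2 had a log2 fold change of 0.28 (SE 0.13), Pcna 0.04 (SE 0.17), Mcm7 -0.03 (SE 0.16), Top2a 0.11 (SE 0.71) and Mki67 -0.51 (SE 0.50). Over all cells, markers of microglia, border macrophages, oligodendrocytes, their precursors and neurons overlapped between genotypes. So did those of pericytes or smooth muscle, ependymal cells, choroid plexus and red blood cells. Markers of the other cell types searched separated the genotypes. With 2 libraries against 2, such a separation allows no two-sided exact permutation p below 0.333. Immature neuron markers stood at 1696 and 1750 CPM in WT and 1767 and 1896 in Dp(10)2Yey. Astrocyte markers stood at 4636 and 4417 against 5987 and 6019, and neutrophil or monocyte markers at 96.3 and 2.23 against 351 and 289. Lymphocyte markers were also higher in Dp(10)2Yey, while endothelial and vascular leptomeningeal markers were lower. Their part in the S and G2/M medians was not tested.

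In neuronal cells edgeR called 0 of 11 S and 0 of 24 G2/M genes tested, beside 0% of 7533 genes, and DESeq2 called 0. At an unadjusted p under 0.05 there were 3 S genes (Mcm3, Tyms and Gmnn) and 3 G2/M genes (Ube2c, Cdc20 and Cenpa), all higher in Dp(10)2Yey by the fit, beside 3.61% of all genes tested. Cdc20 had 2 and 8 UMIs in WT and 10 and 40 in Dp(10)2Yey, and Mcm3 0 and 8 against 8 and 28. Medians were 0.64 for S and 0.53 for G2/M against 0.02 over all genes, and 1.02 and 0.78 by DESeq2. Without WT replicate 2, 2 genes, Prc1 and Top2a, were called beside 0.130% of 7720 genes, with WT replicate 1, low for G2/M, as the lone WT library, and the medians were 1.80 and 1.88. In the immature neuron-like cells fitted alone, a comparison chosen after seeing the data, 0 of 9 S and 0 of 22 G2/M genes were called by edgeR beside 0% of 3362 genes, 0 by DESeq2 and 1 (Cdc20) at an unadjusted p under 0.05, beside 2.74% of genes. Medians were 0.35 and 0.02 (0.70 and 0.21 by DESeq2) and were not stable. Without WT replicate 1 they were -0.019 and -0.33, and without WT replicate 2 they were 1.75 and 1.94, with the same 2 genes, Prc1 and Top2a, called beside 0.215% of 3726 genes. Without Dp(10)2Yey replicate 1 they were -0.008 and 0.095, and without Dp(10)2Yey replicate 2 they were 0.97 and 0.12.

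In oligodendrocyte precursor-like cells edgeR called 0 of 7 S and 0 of 2 G2/M genes tested, beside 0% of 8119 genes, and DESeq2 0. The 1 gene at an unadjusted p under 0.05, beside 3.28% of all genes, was Pclaf, a Pcna-binding factor, with 7 and 13 UMIs in WT and 3 and 3 in Dp(10)2Yey, a log2 fold change of -2.27 (SE 0.62, adjusted p 0.999 by edgeR). The S median was -0.15 and the G2/M median -0.01 against -0.001 over all genes. Without 1 library the S median ran from -0.24 to -0.14, and with no filter on low counts it was -0.27. In all remaining cells edgeR called 0 of 8 S and 0 of 6 G2/M genes, beside 0% of 12166, with 0 by DESeq2 and 0 at an unadjusted p under 0.05 beside 3.42% of genes, and medians of 0.08 and -0.02 against 0.01. Both signs changed with the libraries used, the S median running from -0.34 without Dp(10)2Yey replicate 1 to 0.18 without WT replicate 2, and the G2/M median from -0.056 without WT replicate 1 to 0.087 without WT replicate 2.

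In microglia-like cells edgeR called 0 of 8 S and 0 of 4 G2/M genes tested, beside 0.011% of 9099 genes, and DESeq2 0. At an unadjusted p under 0.05 there were Tyms and Top2a, beside 3.12% of all genes. Tyms had 9 and 14 UMIs in WT and 26 and 36 in Dp(10)2Yey, a log2 fold change of 0.83 (SE 0.38, adjusted p 0.99996 by edgeR). Top2a had 0 and 0 UMIs in WT and 16 and 19 in Dp(10)2Yey, and with a floor of 3 counts for WT that is at least 7.77-fold, with an adjusted p of 0.0422 by edgeR. Its UMIs came from 4 cells, so the bound describes summed UMIs and not how many cells held Top2a. Without the 2 barcodes of at least 5 G2/M genes 3 and 0 UMIs were left in Dp(10)2Yey. Top2a passed 0.01 with no filter on low counts, among 13 of 15684 genes, and with replicate number as a replicate block, among 29 of 9099. All 8 S genes tested were above 0 beside 49.9% of all genes, with a median of 0.24 against -0.001 (without WT replicate 2, 7 of 9 were above 0), and the G2/M median was 0.27, also with Top2a at its bound. Dropping Dp(10)2Yey replicate 1 gave an S median of 0.16, dropping WT replicate 1 gave 0.41 and dropping Dp(10)2Yey replicate 2 gave 0.48, and the G2/M median ran from 0.20 to 0.35.

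**Figure D5:**
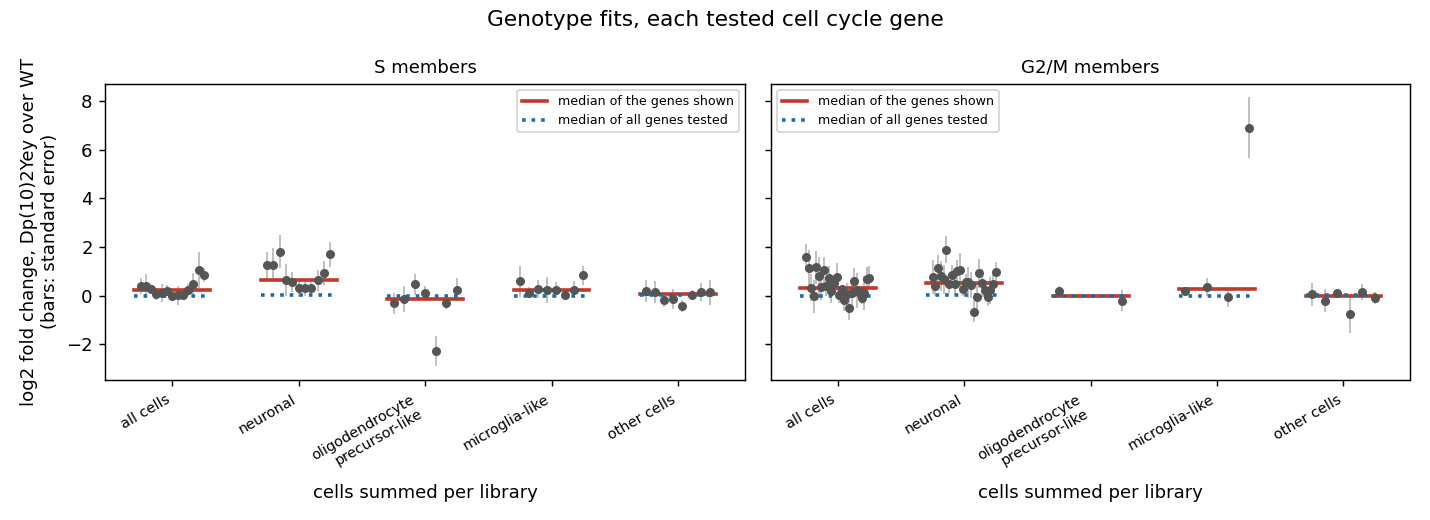
Log2 fold change, Dp(10)2Yey over WT, of each S gene (left) and G2/M gene (right) tested, by the cells summed per library, with bars of 1 standard error, the median of the genes shown (red) and that of all genes tested (blue, dotted). No gene shown passed an adjusted p of 0.01 by edgeR, and the point for Top2a in microglia-like cells, with 0 UMIs in WT, is a fitted value and not a bound.

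Other genes of the cycle, from lists of 32 S, 31 G2/M, 24 G1 and 7 CDK inhibitor genes, set these values in context. By cluster, at least 50% of UMIs were in immature neuron-like cells for 4 of 32 other S and 14 of 31 other G2/M genes, 1 of 24 G1 regulators and 0 of 7 inhibitors. The most abundant were not proliferation markers. Tubb4b, a tubulin gene, had 247 and 181 CPM in WT and 202 and 255 in Dp(10)2Yey, Anp32e, a histone chaperone gene, 74.4 and 91.2 against 88.5 and 97.9, and Anln, which encodes a cytokinesis and myelin scaffold protein, 59.6 and 84.7 against 97.6 and 99.1. Anln stood at 391 CPM in oligodendrocyte-like cells and 17.5 in immature neuron-like cells. Of the S list, Slbp, the histone mRNA binder, had 66.5 and 45.7 CPM in WT and 58.9 and 55.8 in Dp(10)2Yey, with 63.5% of its UMIs in microglia-like cells. Nasp, a histone chaperone gene, had 44.6 and 47.5 against 47.3 and 41.8, and Rfc2, a clamp loader subunit gene, 35.7 and 34.4 against 35.5 and 41.5.

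Of the G1 list, Ccnd1 had 180 and 147 CPM over all cells in WT and 193 and 158 in Dp(10)2Yey, and stood at 899 CPM in oligodendrocyte precursor-like, 188 in microglia-like and 152 in immature neuron-like cells. Ccnd2 had 71.6 and 101 in WT and 112 and 95.3 in Dp(10)2Yey, with 1455 CPM in immature neuron-like and 2.93 in microglia-like cells. Cdk4, the gene of a kinase of the D cyclins, had 68.2 and 76.2 against 64.7 and 92.0, highest in immature neuron-like cells (385 CPM) among the 7 classes compared. Of the inhibitors, Cdkn1a, the p21 gene, had 93.9 and 59.4 in WT and 67.9 and 84.9 in Dp(10)2Yey with 75.3% of UMIs in microglia-like cells. Cdkn1b, the p27 gene, had 81.9 and 81.4 against 73.7 and 93.0, and Cdkn2d 36.3 and 42.1 against 41.3 and 39.9. By edgeR 0 of the genes tested in these lists passed 0.01 in any of the 6 fits, with 12 at an unadjusted p under 0.05 over the 310 tests, beside 2.71% to 3.61% of all genes by fit, and DESeq2 called 0. In all cells 20 of 26 other S and 17 of 24 other G2/M genes tested were above 0, with medians of 0.13 and 0.12, and 1 gene of each was at an unadjusted p under 0.05. For G1 regulators and inhibitors the medians were 0.03 and 0.02.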

How the data were processed

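Hippocampal cells of 2 Dp(10)2Yey and 2 WT mice were analysed. The deposited values are raw UMI counts per gene and barcode, which the authors made with Cell Ranger 3.0.2 against mm10, for barcodes called as cells, with at least 500 UMIs each. The methods of the study give 2 preparation days, each with 1 mouse of each genotype, but the replicate numbers do not state the day. Barcodes under 200 genes and those with a globin share of at least 0.1 were removed, the latter rule being chosen after seeing the data. Cells were clustered with Seurat 5.3.0 (R 4.3.3; 2000 variable genes per library without 134 cell cycle genes, 50 dimensions, resolution 0.2), and a cluster was named when at least 3 of its 10 leading genes were markers of 1 cell type. Proliferation genes outside those 134, such as Hist1h1b, stayed in. Cluster borders moved by some cells with the linear algebra kernel of the machine, which was fixed after a first run. With the earlier kernel the neuronal G2/M levels of the genotypes narrowly did not overlap. Doublets were called with Scrublet in scanpy 1.11.5 (52 cells, kept).

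Counts were summed per library and tested with edgeR 4.0.16 (TMM, filterByExpr, quasi-likelihood, Benjamini-Hochberg) and as an alternative with DESeq2 1.42.0, checked on simulated data. Summed levels were compared by exact permutation tests (scipy 1.17.1). The 40 genes and the lists were chosen with earlier results of these data known. Genes given with values in every library were Mki67 and Top2a, the 5 S and 7 G2/M genes with most UMIs, the genes with fewest UMIs, any with an adjusted p under 0.01, and the 3 other cycle genes with most UMIs in each list. Single-library shares have 95% exact Clopper-Pearson intervals, and a count of 0 allows up to 3 counts. The other experiments of the study were not analysed here.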

Additional observations from a re-analysis of the deposited data

Results flagged for a closer look

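The difference in S level between genotypes had unlike directions between classes. Dp(10)2Yey minus WT, on means of 2 libraries each, it was 237 CPM in neuronal cells and 29.4 CPM in microglia-like cells, with both Dp(10)2Yey libraries above both WT libraries, and -41.0 CPM in oligodendrocyte precursor-like cells, with both below. Leaving out 1 library, the difference ran from 143 to 331 CPM in neuronal cells and from 19.5 to 39.3 in microglia-like cells. In oligodendrocyte precursor-like cells it ran from -71.1 to -10.9 CPM. Without the barcodes of at least 5 G2/M genes the microglia-like difference was 14.8 CPM, again with no overlap. In neuronal cells and in precursors the direction depended on which cells were used. Immature neuron-like cells held 1027 of the 1132 S UMIs of neuronal cells. Within them S levels overlapped, at 426 and 1423 CPM in WT and 1691 and 1038 in Dp(10)2Yey. Neuron-like cells alone, a part of the neuronal cells, stood at -36.0 CPM with both Dp(10)2Yey libraries below both WT libraries. That value rested on 11 and 48 S UMIs in WT and 15 and 31 in Dp(10)2Yey. WT replicate 2 and Dp(10)2Yey replicate 2 were nearly equal. In those cells astrocyte markers separated the genotypes too (2529 and 3633 CPM in WT, 6689 and 4837 in Dp(10)2Yey). Immature neuron markers did so as well, lower in Dp(10)2Yey (1302 and 1447 CPM in WT, 929 and 1254 in Dp(10)2Yey). Dp(10)2Yey replicate 1 had the most oligodendrocyte and the least neuron marker RNA. In oligodendrocyte precursor-like cells the difference was 53.0 CPM without 6 barcodes of at least 5 G2/M genes, with overlap between genotypes, and with classes by marker UMIs the genotypes overlapped there too. The difference between the classes was not tested.

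Among the 222 barcodes removed as globin-rich or under 200 genes, Ube2c stood at 42.2 CPM against 9.07 in the cells kept, with 46 UMIs, and Nusap1 at 15.6 CPM against 6.56, with 17 UMIs. Of these, 41 and 16 UMIs came from Dp(10)2Yey replicate 2, which held 147 of the 222 barcodes. These barcodes are outside the comparisons made above, and the cause was not tested.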

How the results depend on the processing

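Of the 40 genes, 0 were called over all cells under every alternative run, and over the 4 fits without 1 library the median there ran from 0.0066 to 0.40 for S and from 0.030 to 1.69 for G2/M. Where a genotype has 1 library left, its spread is assumed to be that of the other. Leaving out 1 library gave 0 to 2 of the 40 genes called in neuronal cells, beside 0.0217% to 0.152% of all genes (medians 0.43 to 1.80 for S and 0.25 to 1.88 for G2/M) and 0 to 2 in immature neuron-like cells, beside 0.0794% to 0.356% (-0.019 to 1.75 and -0.33 to 1.94). In oligodendrocyte precursor-like cells the G2/M median ran from -0.10 to 0.082, in microglia-like cells the medians from 0.16 to 0.48 (S) and 0.20 to 0.35 (G2/M), and in the remaining cells from -0.34 to 0.18 and -0.056 to 0.087. By DESeq2 the medians were 1.02 and 0.78 in neuronal and 0.70 and 0.21 in immature neuron-like cells. With no filter on low counts more low genes enter, and the medians were 0.21 for G2/M in oligodendrocyte precursor-like cells, 0.57 for S and 1.53 for G2/M in microglia-like cells and 0.10 for G2/M in the remaining cells, with 1 gene, Top2a, called in microglia-like cells. With replicate number as a replicate block, and at a threshold of 0.05, 1 gene, again Top2a, was called there. The labels do not state that replicates of 1 number share a day.

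Of the log2 ratios between classes, leaving out Hmgb2 (chosen after seeing the data) turned the G2/M ratios of neuron-like over microglia-like to 0.46, oligodendrocyte precursor-like over microglia-like to 1.34 and microglia-like over oligodendrocyte-like to -0.65. Leaving out 7 genes also found outside the cycle gave 0.20 for S of microglia-like over oligodendrocyte-like, and for G2/M 0.93 for neuron-like over microglia-like, 1.42 for neuron-like over oligodendrocyte-like and 1.82 for oligodendrocyte precursor-like over microglia-like. The last was 0.50 with classes by marker UMIs. Neuron-like over oligodendrocyte-like for G2/M ran from -0.40 to 0.065 without 1 library. The other 190 of 200 values kept their direction. These include the S ratios without Hmgb2, which could not change because Hmgb2 is a G2/M gene.

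The S share without 1 library ran from 17.5% to 20.1% in immature neuron-like cells. By marker class it was 23.8% there, 32.5% in oligodendrocyte precursor-like, 26.4% in microglia-like and 63.1% in oligodendrocyte-like cells. Without the 7 genes it was 25.4%, 78.8%, 76.2% and 80.3%, and without Hmgb2 28.5%, 76.2%, 77.7% and 73.8%. Without cells over 20% mitochondrial UMIs it was 62.2% in neuron-like cells.

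With classes by marker UMIs, chosen after seeing the data, 3 of 27 G2/M and 2 of 13 S genes had at least 50% of their UMIs in immature neuron-like cells. Without barcodes of at least 5 G2/M genes the S difference between genotypes in oligodendrocyte precursor-like cells turned to 53.0 CPM. In the remaining cells the difference between genotypes, Dp(10)2Yey minus WT, ran without 1 library from -16.4 to 12.9 CPM for S and from -1.58 to 6.20 CPM for G2/M; single values of the turned sign were 7.69, 12.9, -0.0765 and -1.58.

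Unthinned, at least 3 S genes were found in 21.5% of immature neuron-like, 1.61% of neuron-like, 11.7% of oligodendrocyte precursor-like, 2.54% of microglia-like and 4.02% of oligodendrocyte-like cells, and at least 3 G2/M genes in 26.5%, 4.04%, 0.299% and 0.722% of immature neuron-like, oligodendrocyte precursor-like, microglia-like and oligodendrocyte-like cells. At 2000 UMIs at least 3 S genes were found in 12.6% of immature neuron-like, 4.21% of oligodendrocyte precursor-like and 0.435% of microglia-like cells. Depth was equal at 2000 UMIs, where the precursor share lay above the microglia-like share. Deeper barcodes show more genes by construction. For the other changes the cause was not tested. Most of the 40 genes have few UMIs per library, and 0 calls do not exclude small differences. Over all cells edgeR called 0 of the 31 duplicated genes, at a median of 0.57 (23 at an unadjusted p under 0.05, 0 by DESeq2). Power for the 40 genes themselves was not measured.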
